A study of Homo sapiens with 4 samples.

Results

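The genes described here are 10 components of the Notch pathway, taken by gene symbol from the table of expression values: the receptors NOTCH1, NOTCH2 and NOTCH3, the ligands JAG1 and JAG2, the nuclear factors RBPJ and MAML1, and the target genes HES1, HEY1 and NRARP. All 10 were among the 48162 genes listed. JAG1 appeared on 2 rows, and the row with the higher mean was used. The libraries came from MDA-MB-231, an established human breast cancer line of the triple-negative, mesenchymal type, and each sequenced the poly(A) RNA of cells kept for 24 h with vehicle (2 libraries) or with 10 µM MGH-CP1 (2 libraries). MGH-CP1 is named in the series title as blocking the palmitoylation of TEAD, the DNA-binding partner of the Hippo pathway effectors YAP and TAZ. The vehicle is not named in the labels, and all libraries came from 1 line. The labels do not say that replicates were separate cultures, so the p-values below rest on the scatter among 4 libraries, and that scatter may be technical.

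Notch receptors are single-pass membrane proteins that bind Jagged or Delta ligands on a neighbouring cell. Binding exposes the receptor to an ADAM protease and then to γ-secretase, which frees its intracellular domain. That domain enters the nucleus, joins RBPJ and a Mastermind protein on DNA, and switches on target genes such as those of the HES and HEY repressors. In breast tissue the pathway is known for its part in luminal cell fate, and in breast cancer for Jagged ligands and for YAP and TAZ as inputs to the transcription of several of its genes.

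Most of the core pathway was expressed and showed no change that passed the test. FPKM (fragments scaled to gene length and library size) was compared between groups with limma on log2(FPKM + 1), over the 11790 genes that averaged 1 FPKM or more. Of the 10 Notch genes 7 were tested and 0 passed at an adjusted p under 0.05 (limma, Benjamini-Hochberg), beside 45.0% of all genes tested, 20.0% higher and 25.1% lower. None of the 7 had an unadjusted p under 0.05 in this limma fit either, a level that 52.9% of all tested genes reached. The groups did not overlap for 4 of the 7 (3 higher and 1 lower with MGH-CP1), which was the case for 74.1% of all genes tested (34.7% higher and 39.4% lower). A limma-voom fit to the reads of the same 11790 genes also called 0 of the 7, beside 48.9% of all. In that fit JAG1 and JAG2 had unadjusted p = 0.0427 and 0.0478 (limma-voom). The median size of the log2 fold change, regardless of sign, was 0.14 over the 7 genes and 0.23 over all tested genes. NOTCH3, NRARP and HEY1 lay below the limit of 1 FPKM and are described from their reads. Reads recovered from the FPKM values gave library totals of 16790645 to 18485701.

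**Figure D1:**
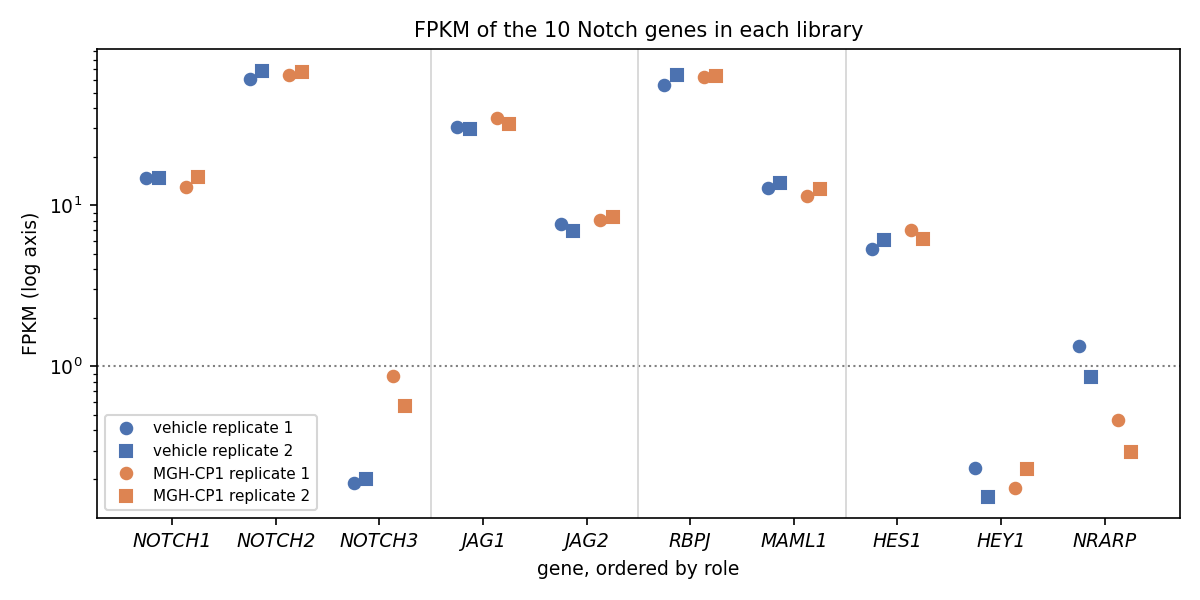
FPKM of the 10 Notch genes (log axis) in the vehicle libraries (blue) and MGH-CP1 libraries (orange), with circles for replicate 1 and squares for replicate 2, ordered as receptors, ligands, nuclear factors and targets. The dotted line marks 1 FPKM, the mean needed for testing, and NOTCH3 and NRARP are those of the 10 whose group means differ by the largest ratio.

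The line was checked against marker genes. All 4 mesenchymal markers averaged over 1 FPKM, with sums of 1106 and 1104 FPKM in vehicle and 1011 and 1030 with MGH-CP1. Within that list VIM had 171 and 147 FPKM in vehicle and 199 and 193 with MGH-CP1. CD44, at 277 and 271 and at 329 and 343, and FN1, at 111 and 126 and at 204 and 197, were also higher. Only AXL went the other way, at 546 and 559 and at 279 and 297. Of 6 luminal and hormone receptor genes 3 averaged over 1 FPKM, and their summed level was 320 to 334 FPKM, most of it KRT8 at 288 to 299 FPKM. ERBB2 was at 24.5 to 26.3 FPKM and EPCAM at 7.91 to 9.95 FPKM, while PGR was listed at 0 in all 4 libraries and ESR1 did not exceed 0.00912 FPKM. Of 5 markers of endothelial cells, in which Notch is strongly active, 4 were found in the table and their summed level was 0.619 and 0.938 FPKM in vehicle and 0.469 and 0.739 with MGH-CP1. VWF and CDH5, the defining ones among them, were at most 0.0286 FPKM in any library. Most of the endothelial sum was KDR, at 0.510 and 0.868 FPKM in vehicle and 0.436 and 0.586 with MGH-CP1. Of 5 fibroblast markers 3 averaged 1 FPKM or more, among them COL1A1 at 2.79 and 1.85 FPKM in vehicle and 2.14 and 2.11 with MGH-CP1. Of 4 immune markers 1 did, and their sum was 3.26 and 3.36 FPKM in vehicle and 3.20 and 2.99 with MGH-CP1. Most of the immune sum was CD14, at 2.84 to 3.24 FPKM. The share of reads from the mitochondrial genome was 0.676% and 0.645% in vehicle and 1.81% and 1.54% with MGH-CP1, and its part in the values below was not tested.

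NOTCH2 was the main receptor transcript and NOTCH1 the next, and neither differed between the groups beyond the spread of replicates. NOTCH2 (ENSG00000134250, hg19 chromosome 1, 120454176 to 120612240, minus strand) had 60.3 and 68.5 FPKM in the vehicle libraries and 64.1 and 67.5 FPKM in the MGH-CP1 libraries. Both treated values lay inside the vehicle range, and the level placed it above 92.3% of the tested genes. Its log2 fold change was 0.03 ± 0.07 (SE; limma, adjusted p = 0.743), with a 95% interval from 0.908-fold to 1.15-fold. A near-identical partial copy, NOTCH2NL, was listed at 7.76 ± 2.03 and 7.82 ± 1.08 FPKM (SD, n = 2 each), and reads may be split between the genes, so both levels are uncertain.

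NOTCH1 (ENSG00000148400, hg19 chromosome 9, 139388896 to 139440314, minus strand) had 14.8 and 14.8 FPKM in vehicle and 13.0 and 14.9 FPKM with MGH-CP1. The groups overlapped, with MGH-CP1 replicate 1 the lowest library. The log2 fold change was -0.08 ± 0.08 (limma, adjusted p = 0.428), and the 95% interval ran from 0.830-fold to 1.07-fold. The 2 NOTCH1 values in vehicle agreed more closely (SD 0.0302 FPKM) than those with MGH-CP1 (SD 1.33 FPKM). Within a library NOTCH1 stood at 0.246 and 0.216 of the NOTCH2 level in vehicle and at 0.203 and 0.221 with MGH-CP1, both per length. The log2 ratio differed by -0.12 between the groups (two-sided exact permutation test, p = 0.667). With 2 libraries against 2 the smallest p of this test is 0.333, and after adjustment over the 5 ratios examined every value was 0.667.

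NOTCH3 was a trace receptor transcript that stood higher in both MGH-CP1 libraries. NOTCH3 (ENSG00000074181, hg19 chromosome 19, 15270444 to 15311792, minus strand) encodes a receptor best known from vascular smooth muscle. It had 0.188 and 0.199 FPKM in vehicle and 0.874 and 0.570 FPKM with MGH-CP1, from 28 and 27 reads and from 122 and 78 reads. The groups did not overlap, and mean FPKM was 3.73-fold higher with MGH-CP1. Among genes with at least 10 reads, 32.1% were higher without overlap and 33.8% lower without overlap. On the log2(FPKM + 1) scale, which compresses such low values, the difference was 0.52, and it did not pass when all genes were tested with no filter (limma, adjusted p = 0.0589, where 6.36% of genes passed as higher). In a voom fit to the recovered reads of the 16755 genes with at least 10 reads, added after the data were seen, NOTCH3 rose, with a log2 fold change of 1.85 ± 0.32 (limma-voom, adjusted p = 0.000259). That fit called 35.5% of its genes, 16.4% as higher and 19.1% as lower, and of the 10 Notch genes it called NOTCH3 and NRARP. In bulk RNA, a change in the number of cells that express a gene and a change in RNA per cell cannot be told apart. Leaving out any 1 library kept that call, with log2 fold changes from 1.54 to 2.16 and a largest adjusted p of 0.00443 (limma-voom).

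NOTCH2 was the bulk of the receptor pool in every library. Of the summed FPKM of NOTCH1 to NOTCH4, NOTCH2 made up 79.9% and 82.0% in vehicle and 82.1% and 81.3% with MGH-CP1. NOTCH3 made up 0.249% and 0.238% in vehicle and 1.12% and 0.687% with MGH-CP1. NOTCH4, the endothelial receptor gene, was at 0.128 and 0.0795 FPKM and at 0.0943 and 0.0612 FPKM, from 7 to 16 reads a library, and its groups overlapped. It shares its locus and strand with GPSM3, at 21.9 FPKM, so those reads are uncertain. The summed receptor level was 75.4 and 83.6 FPKM in vehicle and 78.1 and 83.0 FPKM with MGH-CP1, so these ranges overlapped too. The NOTCH3 to NOTCH2 ratio, which does not depend on the scaling between libraries, was 0.00311 and 0.00291 in vehicle and 0.0136 and 0.00845 with MGH-CP1, with log2 ratios 1.83 apart between the groups (two-sided exact permutation test, p = 0.333, the smallest it can give).

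**Figure D2:**
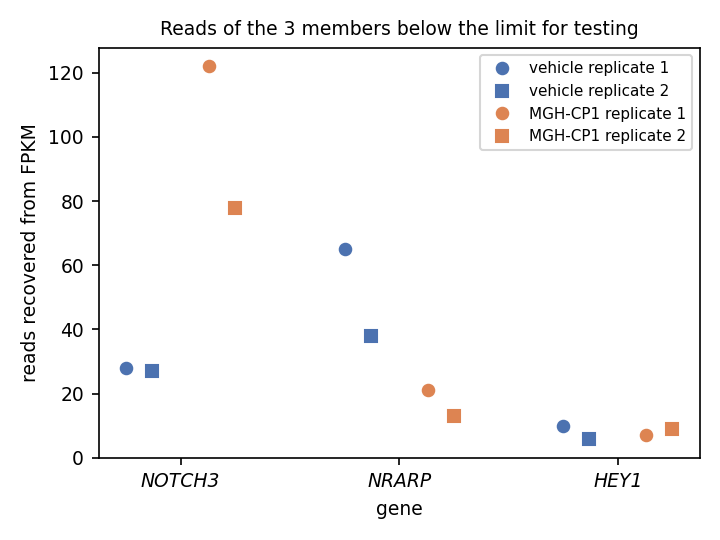
Reads recovered from the FPKM values (linear axis from 0) for the 3 Notch genes below the limit for testing, in vehicle (blue) and MGH-CP1 (orange) libraries, circles for replicate 1 and squares for replicate 2. NOTCH3 reads lie at 27 and 28 in vehicle against 78 and 122, NRARP reads at 38 and 65 against 13 and 21, and HEY1 has 10 or fewer reads in every library.

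Both Jagged ligand genes were slightly higher in each MGH-CP1 library, by amounts that did not pass the test. JAG1 (ENSG00000101384, hg19 chromosome 20, 10618332 to 10654694, minus strand), a membrane ligand gene with known inputs from several pathways, had 30.5 and 29.8 FPKM in vehicle and 34.7 and 32.1 FPKM with MGH-CP1. The lower treated library lay above the higher vehicle library, by less than the distance between the treated replicates and more than that between the vehicle replicates. The log2 fold change was 0.14 ± 0.06 (limma, adjusted p = 0.108), with a 95% interval from 0.995-fold to 1.22-fold, and over the 16 alternative analyses the adjusted p ran from 0.0704 to 0.656 (limma or voom). The second JAG1 row, a processed transcript inside the gene, was listed at 0 in all 4 libraries.

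JAG2 (ENSG00000184916, hg19 chromosome 14, 105607318 to 105635161, minus strand), the related ligand, had 7.68 and 6.87 FPKM in vehicle and 8.09 and 8.47 FPKM with MGH-CP1. The groups did not overlap, but vehicle replicate 1 lay closer to the lower treated value than to vehicle replicate 2. The log2 fold change was 0.17 ± 0.08 (limma, adjusted p = 0.147), with a 95% interval from 0.979-fold to 1.29-fold. JAG2 passed as higher in 1 of the 16 alternatives, the voom fit without vehicle replicate 1 (limma-voom, adjusted p = 0.032). Its adjusted p reached 0.478 in other alternatives (limma-voom).

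JAG1 remained the main ligand transcript at 3.97 and 4.34 times the JAG2 level in vehicle and 4.29 and 3.79 times with MGH-CP1. These ratios overlapped (two-sided exact permutation test, p = 0.667), and their log2 difference of -0.04 turned positive without vehicle replicate 2 (0.02) or without MGH-CP1 replicate 2 (0.05). The Delta ligand genes were nearly absent. DLL1 had 8 and 3 reads in vehicle and 2 and 2 with MGH-CP1, and DLL3 had 4 reads in vehicle replicate 1 and 0 in the others. DLL4, an endothelial tip cell ligand gene, had 1 and 1 reads in vehicle and 9 and 5 with MGH-CP1, a difference that did not pass in the voom fit with low genes included (limma-voom, adjusted p = 0.0649). JAG1 made up 78.9% to 81.1% of the summed ligand FPKM and JAG2 18.7% to 20.8%.

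Neither of the nuclear factors RBPJ and MAML1 passed the main test. RBPJ (ENSG00000168214, hg19 chromosome 4, 26165077 to 26436541, plus strand) encodes the DNA-binding protein that represses targets alone and activates them with cleaved Notch. It had 55.8 and 64.3 FPKM in vehicle and 62.5 and 63.2 FPKM with MGH-CP1, so the treated values lay within the vehicle range. The log2 fold change was 0.07 ± 0.07 (limma, adjusted p = 0.489), with a 95% interval from 0.929-fold to 1.18-fold. The vehicle libraries decide this value: without vehicle replicate 2 RBPJ was called higher at 0.17 (limma, adjusted p = 0.0351), and without vehicle replicate 1 the value was -0.03 (limma, adjusted p = 0.686). Over the 16 alternatives its adjusted p ran from 0.0239 to 0.742 (limma or voom). RBPJ was about as abundant as NOTCH2 and above 91.8% of the tested genes.

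MAML1 (ENSG00000161021, hg19 chromosome 5, 179159851 to 179223512, plus strand), a Mastermind co-activator that recruits acetyltransferases to the Notch complex, had 12.8 and 13.7 FPKM in vehicle and 11.3 and 12.6 FPKM with MGH-CP1. The treated values were the lower pair without overlap, with the higher treated library just below the lower vehicle library. The log2 fold change was -0.14 ± 0.08 (limma, adjusted p = 0.177), with a 95% interval from 0.799-fold to 1.03-fold. Its paralogs MAML2, at 15.2 ± 1.20 and 15.3 ± 1.00 FPKM, and MAML3, at 1.17 ± 0.0496 and 1.35 ± 0.0187 FPKM (SD, n = 2 each), did not pass either (limma, adjusted p = 0.889 and 0.473). MAML3 overlaps MGST2, at 5.03 FPKM, on the opposite strand, so its level is uncertain.

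None of the 3 target genes passed the main test, and NRARP and HEY1 were too low to enter it. HES1 (ENSG00000114315, hg19 chromosome 3, 193853934 to 193856521, plus strand), a repressor of the basic helix-loop-helix class and the most used readout of Notch activity, had 5.35 and 6.08 FPKM in vehicle and 7.00 and 6.20 FPKM with MGH-CP1. The lower treated library exceeded the higher vehicle library by less than the distance between replicates, on 156 to 191 reads a library. The log2 fold change was 0.18 ± 0.10 (limma, adjusted p = 0.173), with a 95% interval from 0.966-fold to 1.33-fold. In none of the 16 alternatives did HES1 pass (limma or voom, adjusted p from 0.0827 to 0.762).

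NRARP (ENSG00000198435, hg19 chromosome 9, 140194083 to 140196703, minus strand) encodes a small ankyrin repeat protein that is induced by Notch and limits the Notch intracellular domain. It had 1.34 and 0.863 FPKM in vehicle and 0.463 and 0.292 FPKM with MGH-CP1, from 65 and 38 reads and from 21 and 13 reads. The treated libraries were the lower pair without overlap, as for 33.8% of genes with at least 10 reads. Mean FPKM was 2.92-fold lower with MGH-CP1. With a mean below 1 FPKM it was not in the main test, and it did not pass with no filter (limma, log2 fold change -0.60, adjusted p = 0.0889, where 8.25% of genes passed as lower). In the voom fit with low genes included it passed as lower, with a log2 fold change of -1.53 ± 0.40 (limma-voom, adjusted p = 0.00663). That call was lost without MGH-CP1 replicate 2, where the value was -1.21 (limma-voom, adjusted p = 0.0763).

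HEY1 (ENSG00000164683, hg19 chromosome 8, 80676245 to 80680098, minus strand), a repressor gene that responds to Notch mainly in vessels and heart, was barely detected. It had 0.236 and 0.156 FPKM in vehicle and 0.176 and 0.231 FPKM with MGH-CP1, from 10, 6, 7 and 9 reads. The groups overlapped, and the 95% interval of the voom fit ran from -1.22 to 1.34 on the log2 scale (limma-voom, adjusted p = 0.955), so a moderate difference was not detectable at this depth. HES1 stood at 22.7 and 39.0 times HEY1 in vehicle and 39.7 and 26.8 times with MGH-CP1, with overlap between the groups (two-sided exact permutation test, p = 0.667).

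Of the 7 listed targets only HES1 and HES4 were abundant enough for the main test, and HES4 passed it as lower. Among all genes tested 45.0% passed and 25.1% passed as lower, so 1 call among 2 genes is near the general share. HES4 is a paralog of HES1 that is absent from mice. HES4 (ENSG00000188290, hg19 chromosome 1, 934342 to 935552, minus strand) had 14.8 and 13.2 FPKM in vehicle and 6.84 and 7.77 FPKM with MGH-CP1. The groups were well apart, and the mean was 1.92-fold lower with MGH-CP1. HES4 fell by 0.85 ± 0.09 on the log2 scale (limma, adjusted p = 0.000351) and passed in all 16 alternatives (limma or voom, highest adjusted p = 0.013). HES1 relative to HES4 thus went from 0.362 and 0.459 in vehicle to 1.02 and 0.799 with MGH-CP1, with log2 ratios 1.15 apart between the groups (two-sided exact permutation test, p = 0.333, the smallest it can give, for a ratio chosen after the values were seen).

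Added together, the FPKM of the 7 listed targets was 22.1 and 20.5 in vehicle and 14.9 and 14.9 with MGH-CP1. HES4 made up 66.8% and 64.5% of this sum in vehicle and 45.9% and 52.1% with MGH-CP1. HES1 made up 24.2% and 29.6% in vehicle and 47.0% and 41.6% with MGH-CP1. NRARP made up 6.07% and 4.21% in vehicle and 3.11% and 1.96% with MGH-CP1. The lower sum with MGH-CP1 came with lower HES4 and NRARP values, while HES1 values were not lower. HES5 and HEY2 had 3 or fewer reads in every library, and HEYL had 12 to 25 reads with overlap between the groups.

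**Figure D3:**
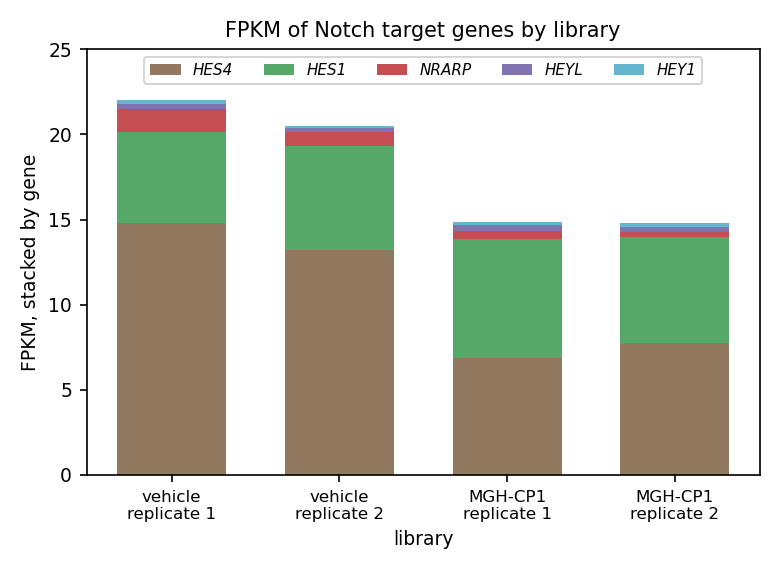
FPKM of 5 Notch target genes stacked for each library (linear axis from 0, HES5 and HEY2 left out as nearly undetected). HES4 (brown) is 13.2 and 14.8 FPKM in vehicle and 6.84 and 7.77 FPKM with MGH-CP1, while HES1 (green) stays between 5.35 and 7.00 FPKM.

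HES1 and HES4 are known as related genes, and only HES4 passed the test. The 250 bases before their start sites are shown, with those of NRARP and NOTCH3, which of the 10 Notch genes were those called in the voom fit with low genes included. The sequences are RefSeq promoter windows on GRCh38.p14, another build than the hg19 of the expression table, and are written 5′ to 3′ on the strand of the gene. Capitals mark matches to the RBPJ motif GTGGGAA on either strand.
HES1, chr3:194135898-194136147, plus strand: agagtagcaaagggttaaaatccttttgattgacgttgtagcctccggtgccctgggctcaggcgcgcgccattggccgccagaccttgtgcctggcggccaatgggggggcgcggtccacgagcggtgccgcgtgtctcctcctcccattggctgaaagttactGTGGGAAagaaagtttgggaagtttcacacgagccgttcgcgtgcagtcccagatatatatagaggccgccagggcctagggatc
HES4, chr1:1000098-1000347, minus strand: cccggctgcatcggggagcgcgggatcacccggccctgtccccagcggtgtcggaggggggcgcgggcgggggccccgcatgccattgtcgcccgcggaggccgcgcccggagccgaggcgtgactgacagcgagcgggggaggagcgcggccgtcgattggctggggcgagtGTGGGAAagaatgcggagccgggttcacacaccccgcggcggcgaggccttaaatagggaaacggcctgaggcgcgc
NRARP, chr9:137302272-137302521, minus strand: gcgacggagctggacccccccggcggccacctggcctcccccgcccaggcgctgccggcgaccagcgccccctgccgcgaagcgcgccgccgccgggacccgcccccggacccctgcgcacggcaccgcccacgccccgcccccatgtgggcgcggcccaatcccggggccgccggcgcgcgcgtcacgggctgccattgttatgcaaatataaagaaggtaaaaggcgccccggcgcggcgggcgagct
NOTCH3, chr19:15200996-15201245, minus strand: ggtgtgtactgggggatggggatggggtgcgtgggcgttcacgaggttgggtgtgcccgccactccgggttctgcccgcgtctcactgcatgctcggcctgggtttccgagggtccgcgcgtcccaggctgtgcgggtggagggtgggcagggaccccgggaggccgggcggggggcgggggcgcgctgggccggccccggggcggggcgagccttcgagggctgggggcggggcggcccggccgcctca

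The RBPJ motif began 85 bases before the start of HES1 and 77 bases before the start of HES4, on the strand of the gene in both. The windows of NRARP and NOTCH3 held no match to these letters, which says nothing of RBPJ binding elsewhere. Of the 7 listed target genes 6 had a window in the table, and 5 of these held the motif, beside 5.43% of all 35116 windows of that length. These genes were listed as Notch targets, so the share is a description and not a test. The target genes with the motif were HES1, HES4, HES5, HEY2 and HEYL, of which HES1 and HES4 were expressed at over 5 FPKM. Of the 10 Notch genes 9 had a window (13 windows in all), and the motif occurred before HES1 and before 1 of 5 starts of RBPJ. The TEAD motif GGAATG, searched on both strands, occurred in no window of these 9 genes, nor did the E box CACGTG, beside 11.9% and 6.34% of all windows. The RBPJ and TEAD motifs share the letters GGAA, so 1 run of bases can hold both, and a match is a description of the sequence only.

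The other genes of the pathway were examined by role in a list of 67 genes that includes the 10 above. Of these 67, 51 were tested, 12 rose and 7 fell, a share of 37.3% beside 45.0% of all genes tested. The median log2 fold change was 0.07 over the list and -0.02 over all tested genes. All 19 calls fell on genes other than the 10 Notch genes. Of the 19 calls 10 held in every alternative run.

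Sugar transferases and furin modify the receptor before it reaches the surface. Of 6 such genes 5 were tested, 3 rose and 1 fell, beside 20.0% higher and 25.1% lower of all genes tested. The median size of the change regardless of sign was 0.24 in this group and 0.23 over all genes. LFNG, which encodes the fringe sugar transferase that changes how Notch receives Delta and Jagged signals, had 8.26 and 6.84 FPKM in vehicle and 12.0 and 13.3 FPKM with MGH-CP1. LFNG rose by 0.68 ± 0.10 on the log2 scale (limma, adjusted p = 0.00158), a 1.68-fold higher mean. Its paralog RFNG rose from 6.75 ± 0.444 to 8.65 ± 0.784 FPKM (SD, n = 2 each), but it overlaps GPS1 on the opposite strand at 28.1 FPKM, so its level is uncertain. FURIN, the protease gene for the first receptor cleavage, rose from 38.9 ± 2.45 to 46.1 ± 0.608 FPKM. POFUT1, whose fucose on the receptor is the base on which fringe builds, fell from 51.4 ± 0.490 to 43.8 ± 0.536 FPKM. The calls of RFNG, FURIN and POFUT1 were lost without MGH-CP1 replicate 2 (limma, adjusted p = 0.189, 0.121 and 0.0843). Without MGH-CP1 replicate 1 those of FURIN and POFUT1 were lost, and without vehicle replicate 2 that of RFNG. With no filter the calls of RFNG and FURIN were lost (limma, adjusted p = 0.104 and 0.0708). Without the variance trend that of FURIN was lost (limma, adjusted p = 0.051).

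Of the 8 genes for ADAM and γ-secretase cleavage, which release the intracellular domain, all were tested, 4 rose and 0 fell, so that 4 of 8 were called, near the 45.0% of all genes tested. APH1B, one of the alternative scaffold subunits of γ-secretase, had 2.66 and 3.10 FPKM in vehicle and 5.02 and 5.90 FPKM with MGH-CP1. APH1B rose by 0.73 ± 0.11 on the log2 scale (limma, adjusted p = 0.00183), whereas the more abundant APH1A did not pass (-0.11; limma, adjusted p = 0.213). Among the receptor-cutting proteases, ADAM17 rose from 19.6 ± 1.08 to 26.7 ± 0.787 FPKM and overlaps IAH1, at 8.30 and 8.32 FPKM, on the opposite strand. ADAM10, the protease most tied to ligand-driven cleavage, was at 71.4 ± 3.46 and 71.1 ± 0.0573 FPKM and did not pass (limma, adjusted p = 0.956). NCSTN, the substrate receptor gene, rose from 41.0 ± 0.805 to 47.5 ± 1.88 FPKM, but overlaps COPA on the opposite strand at 91.9 FPKM and is uncertain. The NCSTN call was lost without either MGH-CP1 library (limma, adjusted p = 0.21 without replicate 1 and 0.0789 without replicate 2), with no filter and without the variance trend.

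Among 8 genes of nuclear activation 0 rose and 1 fell, a share of 12.5% beside 45.0% of all genes tested. The exception was SNW1, the gene of a splicing and transcription co-factor also called SKIP, which fell from 31.6 ± 2.91 to 25.6 ± 0.678 FPKM. It overlaps SLIRP on the opposite strand at 37.5 FPKM, so its level is uncertain. The SNW1 call was lost without either MGH-CP1 library, and also with no filter (limma, adjusted p = 0.0861 with no filter). The acetyltransferase genes EP300, CREBBP and KAT2B had log2 fold changes of 0.07, -0.07 and 0.01 and did not pass (limma, adjusted p = 0.531, 0.472 and 0.935).

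Of 14 co-repressor genes 12 were tested, 3 rose, 2 fell and 7 did not pass, a share called of 41.7%, near the 45.0% of all genes tested. The Groucho family genes TLE3 and TLE1, whose products are recruited by HES proteins, changed in opposite directions. TLE3 had 19.3 and 18.7 FPKM in vehicle and 27.3 and 29.2 FPKM with MGH-CP1, a rise of 0.55 ± 0.06 on the log2 scale (limma, adjusted p = 0.000538). TLE1 had 45.5 and 46.6 FPKM in vehicle and 36.5 and 33.8 FPKM with MGH-CP1, and fell by 0.38 ± 0.06 on the log2 scale (limma, adjusted p = 0.0024). TLE1 nonetheless stayed the more abundant of the pair in every library. CIR1, which bridges RBPJ to histone deacetylases, rose from 16.6 ± 0.625 to 22.1 ± 0.499 FPKM. HDAC2, a histone deacetylase gene, fell from 17.4 ± 0.359 to 14.2 ± 0.226 FPKM, a call lost without either MGH-CP1 library (limma, adjusted p = 0.0572 without replicate 1 and 0.0813 without replicate 2).

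Of 15 genes of endocytosis and turnover 12 were tested, 2 rose and 2 fell, a share of 33.3% beside 45.0% of all genes tested. NUMB, an endocytic adaptor that antagonises Notch, had 16.2 and 17.8 FPKM in vehicle and 25.7 and 24.9 FPKM with MGH-CP1. NUMB rose by 0.54 ± 0.07 on the log2 scale (limma, adjusted p = 0.000812), while its paralog NUMBL did not pass (0.07; limma, adjusted p = 0.545). MIB2, an E3 ubiquitin ligase gene that promotes ligand endocytosis, rose from 14.4 ± 0.510 to 21.6 ± 0.562 FPKM. NEDD4, a ubiquitin ligase gene that can act on Notch, had 8.15 and 8.78 FPKM in vehicle and 4.98 and 5.78 FPKM with MGH-CP1. NEDD4 fell by 0.57 ± 0.09 on the log2 scale (limma, adjusted p = 0.00252). NEURL1B, a Neuralized-type ligase gene, fell from 3.75 ± 0.136 to 2.65 ± 0.0726 FPKM. The NEURL1B call was lost without either MGH-CP1 library, and also with no filter (limma, adjusted p = 0.0718 with no filter). DTX1, which encodes the ubiquitin ligase Deltex and is often used as a Notch target, had 1 read in 1 library and 0 in the other 3.

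**Figure D4:**
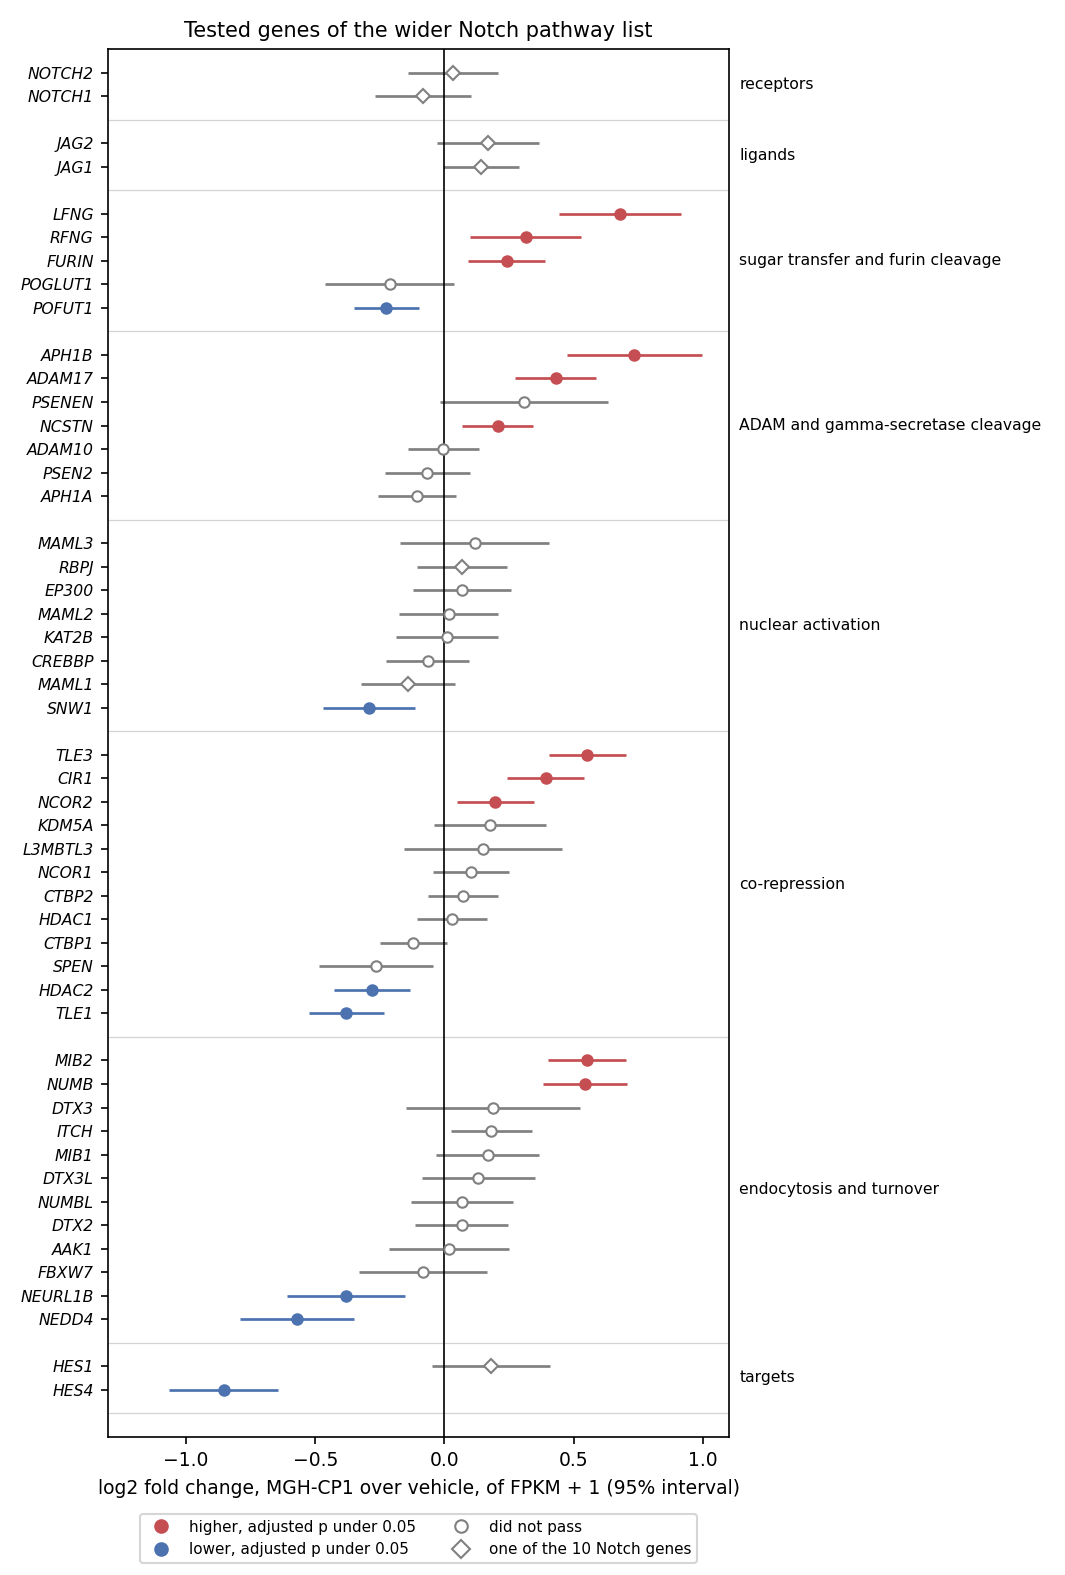
Log2 fold change of FPKM + 1, MGH-CP1 over vehicle, with 95% intervals from limma for 50 of the 51 tested genes of the wider Notch list, grouped by role (red, higher; blue, lower; open, did not pass; diamonds, the Notch genes described first). The intervals of the 7 diamonds cross 0, and the largest rise and fall are those of APH1B (0.73) and HES4 (-0.85).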

How the data were processed

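Per the labels' protocols, poly(A) RNA was fragmented and copied with random hexamers. The authors deposited FPKM values per gene. Per the submitters' processing notes, CASAVA 1.8 and the aligner STAR were used with the genome build hg19. For the STAR version, the read counter, its strand setting and the annotation, nothing is given in the sources used here. Gene lengths, used to recover reads, are those of the deposited table. FPKM times length was a whole multiple (within 0.01) of 1 step for 100% of values above 0 in each library, and these multiples were taken as reads.

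Groups came from the sample titles. Values were tested as log2(FPKM + 1) with limma 3.58.1 (R 4.3.3), group as the only term, a mean-variance trend, a minimum mean of 1 FPKM, and Benjamini-Hochberg adjustment, at a threshold of 0.05. The fit was also run on simulated data with few changed genes and the same assumed scatter for all genes. That run does not measure the error rate in these data. Tables and plots used Python 3.11.15, pandas 2.3.3, numpy 2.4.6 and matplotlib 3.10.9. Ratios within libraries had exact permutation tests. The Notch genes, the wider list and the tests were chosen with earlier results of these data known. Each of the 10 was named. Of the wider list, at most the 4 largest called changes per role without overlap were named, besides NOTCH4, the Delta genes, HES4, HES5, HEY2, HEYL, MAML2, MAML3 and DTX1. Of the genes so chosen, 1 is not reported here by name or plotted, but stays in the counts. Other genes named in comparison were chosen after their values were seen. NEURL1 was matched by gene identifier and all other genes by symbol. The alternatives were another pseudocount (0.1), no filter, a mean of at least 5 FPKM, median-of-ratios scaling, no variance trend, voom on reads, a replicate block and leaving out each library. Fits with 1 library in a group assume that it varies like the others. Voom over genes with at least 10 reads, with and without each library, was added after the data were seen.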

Additional observations from a re-analysis of the deposited data

How the results depend on the processing

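The count of Notch genes called was 0 in both directions in 10 of the 11 alternatives other than voom on low genes. It was 1 higher (RBPJ) without vehicle replicate 2, and 1 higher and 1 lower with voom on genes with at least 10 reads, where leaving out 1 library gave 1 to 2 higher and 0 to 1 lower. Over all genes, 2355 were higher, against 1568 with no filter and 1460 to 2556 with 1 library left out. The lowest were 1524 and 1460, without MGH-CP1 replicate 1 or 2. In the wider list 7 genes were lower, against 3 to 8 with 1 library left out (3 and 4 without MGH-CP1 replicate 1 or 2).

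The log2 fold changes of NOTCH1, NOTCH2, RBPJ and HEY1 changed sign when 1 library was left out, and the cause was not tested. NOTCH1 ranged from -0.17 to 0.01 (0.00809 without MGH-CP1 replicate 1, and 0.00862 by voom). NOTCH2 ranged from -0.06 to 0.12 (-0.0576 without vehicle replicate 1, and -0.0586 by voom), with -0.00288 without MGH-CP1 replicate 2, and -0.00206 by voom. RBPJ ranged from -0.03 to 0.17 (-0.0312 without vehicle replicate 1, and -0.0317 by voom). HEY1, at 0.01 with no filter, ranged from -0.04 (without vehicle replicate 2) to 0.06, with -0.02 without MGH-CP1 replicate 2. Those HEY1 values are on the log2(FPKM + 1) scale, which compresses low values. By voom HEY1 ranged from -0.21 (without vehicle replicate 2) to 0.35 (without vehicle replicate 1). Others kept their sign but moved: MAML1 ranged from -0.07 to -0.21 (without MGH-CP1 replicate 1 or 2), HES1 from 0.10 to 0.26 (without vehicle replicate 1 or 2), JAG2 from 0.24 to 0.10 (without vehicle replicate 1 or 2) and JAG1 from 0.09 to 0.20 (without MGH-CP1 replicate 1 or 2). The log2 difference of the JAG1 to JAG2 ratio ranged from -0.13 to 0.0482 (0.0211 without vehicle replicate 2), and that of HES1 to HEY1 from -0.26 to 0.52 (-0.15 without MGH-CP1 replicate 1).

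The titles number the replicates without saying that a number pairs libraries, and deviations of same-numbered libraries correlated at 0.0502 over 11790 genes. With the replicate number as a block, 2453 genes were higher and 3036 lower, with 0 Notch genes called and 13 higher and 8 lower in the wider list. With 6 to 10 HEY1 reads a library, depth limits what can be seen for that gene.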

Other observations

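HES genes outside the list were examined after their values had been seen. HES2 had 1.41 and 1.51 FPKM in vehicle and 3.46 and 3.92 FPKM with MGH-CP1, from 111 and 108 reads and from 255 and 283 reads. HES2 was higher by 0.93 ± 0.11 on the log2 scale (limma, adjusted p = 0.000626). HES6, which encodes a HES protein that opposes HES1 in neural cells, had 4.29 and 3.42 FPKM in vehicle and 1.99 and 1.95 FPKM with MGH-CP1. HES6 fell by 0.70 ± 0.12 on the log2 scale (limma, adjusted p = 0.00303). HES3 was listed at 0 in all 4 libraries, and HES7 had 7 or fewer reads in each. With HES4 and HES6 lower, HES2 higher and HES1 not passing, the expressed HES genes had no common direction. Of all genes tested 20.0% were higher and 25.1% lower.

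The fringe sum (LFNG, MFNG and RFNG) was 15.7 and 13.7 FPKM in vehicle and 20.9 and 23.1 FPKM with MGH-CP1. LFNG made up 52.6% and 49.9% of it in vehicle and 57.7% and 57.5% with MGH-CP1. RFNG, which overlaps GPS1, made up 45.0% and 47.0% in vehicle and 38.8% and 39.8% with MGH-CP1. The RFNG level is uncertain, so the sum and the shares are too. An antisense gene inside NOTCH1, RP11-413M3.4, had 8 and 7 reads in vehicle and 4 and 2 with MGH-CP1. The difference did not pass with no filter (limma, adjusted p = 0.0917) or in the voom fit with low genes included (limma-voom, adjusted p = 0.233). It overlaps NOTCH1 on the opposite strand, so its reads are uncertain.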
